A study of Schmidtea mediterranea with 64 samples.

Results

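The early response of whole planarians to knockdown of *set1* was read from 8 whole-worm libraries of *Schmidtea mediterranea*, 4 from *set1*(RNAi) animals and 4 from *unc22*(RNAi) animals, all sampled after 6 days of RNAi. They belong to a series of 64 polyA RNA libraries in which *set1* or *mll1/2* was knocked down and RNA was taken from whole worms or from sorted X1 cells. Members were all transcript IDs whose mean RPKM (reads scaled to each kilobase of transcript and each M, or mega, of reads in the library) was at least 1 over the 16 whole-worm libraries of the *set1* experiment (*set1*(RNAi) and *unc22*(RNAi), days 6 and 9, 4 libraries each). Of 27275 IDs listed for these libraries, 19655 (72.1%) were members and 7620 fell below the threshold. The 4 tables of the series together listed 28173 IDs. The member nearest the threshold had a mean of 1.00 RPKM, and the nearest ID outside it 0.9999.

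In every group, animals ate bacteria that make double-stranded RNA, mixed with calf liver paste. Knockdown and control groups therefore share the food, the bacteria and the exposure to double-stranded RNA, and *unc22* serves as a control sequence that matches no planarian gene. RNAi by feeding spreads through the whole planarian and is not restricted to a cell type. Nothing in the labels says how many animals gave each library, or whether replicates are separate cultures, so p-values measure the spread between these libraries only. The labels give neither the strain nor the age of the animals.

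Set1 proteins are the catalytic subunits of complexes named COMPASS, which add methyl groups to lysine 4 of histone H3. The trimethylated form of this residue lies at the start sites of genes that are being transcribed. Planarians keep a large population of dividing stem cells, the neoblasts, which replace all tissues of the adult. Neoblasts in the later phases of the cell cycle are sorted as X1 cells by their DNA content after Hoechst staining, and most other cells of the animal are differentiated and do not divide. Early loss of an H3K4 methyltransferase can be read in whole worms as a change in transcript levels over all of these cells together.

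The IDs come without gene names or sequences, so the level of *set1* itself was not checked in these libraries, and no gene, pathway or cell type is named. Members are described by their level, by their length and by their level in X1 cells, and 4 IDs stand as examples. Libraries of the day 6 comparison held 17.6 to 20.8 M reads after *set1*(RNAi) and 18.2 to 20.5 M after *unc22*(RNAi), as recovered from the steps in the RPKM values. Between 19521 and 19770 IDs per library reached 1 RPKM. The first principal component of the 8 libraries held 35.2% of their variance and set the groups apart, with *set1*(RNAi) libraries at 13.2 to 16.8 and *unc22*(RNAi) libraries at -17.8 to -11.8.

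At day 6, *set1*(RNAi) worms differed from *unc22*(RNAi) worms in 3247 of the 19655 transcripts, or 16.5%, by limma with a Benjamini-Hochberg adjusted p below 0.05, which is what "called" means throughout. Of these, 2085 (10.6%) were lower and 1162 (5.91%) were higher in the knockdown. The same fit called 6 transcripts (0.0305%) between the *unc22*(RNAi) groups, 2 higher (0.0102%) and 4 lower (0.0204%) at day 9 than at day 6, where 1531 had an unadjusted p below 0.05 against 5760 for the knockdown. All 4 *set1*(RNAi) libraries lay below all 4 *unc22*(RNAi) libraries for 2404 transcripts (12.2%) and above them for 1574 (8.01%).

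The balance between rises and falls depended on the scaling of the libraries. Rises made up 35.8% of the calls with the deposited RPKM scale, 46.8% (1661 higher, 1885 lower) after quantile normalisation, 62.4% (2348 higher, 1414 lower) after median scaling and 23.2% (861 higher, 2856 lower) when voom was run on recovered reads. The median log2 fold change of all members was -0.00097 as reported, 0.019 after quantile normalisation, 0.051 after median scaling and -0.033 with voom. The library size implied by the RPKM steps, divided by the reads recovered, was 0.988 to 1.00 in the *set1*(RNAi) libraries and 1.00 to 1.03 in the *unc22*(RNAi) libraries.

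**Figure D1:**
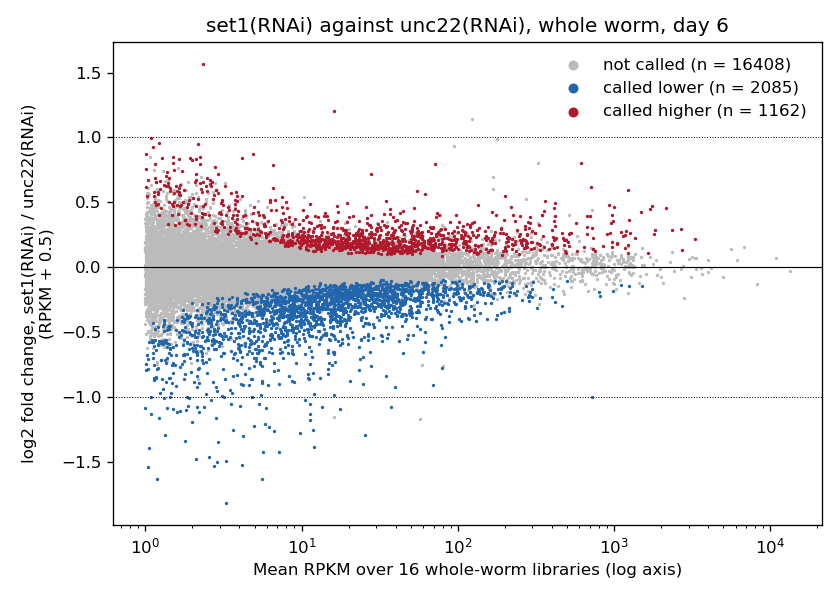
Each point is a transcript, with its mean RPKM over 16 whole-worm libraries on a log axis and its log2 fold change between *set1*(RNAi) and *unc22*(RNAi) at day 6 on the vertical axis (4 libraries per group, RPKM + 0.5). Blue points are the 2085 transcripts called lower, red points the 1162 called higher (1414 and 2348 after median scaling) and grey points those not called; dotted lines mark a 2-fold change, which 57 called falls and 2 called rises passed.

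Most of these differences were small. The median log2 fold change, on the scale of log2(RPKM + 0.5), was -0.31 among transcripts called lower and 0.22 among those called higher, and 83.4% of all calls were under 0.5 in size. Falls reached further than rises. Between 0.5 and 1 there were 377 falls and 104 rises, and at least a 2-fold change was called for 57 falls and 2 rises. Of the transcripts called lower, 1835 (88.0%) had no overlap between the groups, and of those called higher 1003 (86.3%), beside 20.2% of all members. Such high shares nearly follow from calls made on the same libraries and add no support. Over the 2085 transcripts called lower, the median difference of each *set1*(RNAi) library from the mean of the day 6 *unc22*(RNAi) libraries was -0.29, -0.28, -0.33 and -0.31, values that follow from the choice of these transcripts on the same libraries.

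The 57 transcripts that fell at least 2-fold were mostly of low level. Their median was 4.72 RPKM in *unc22*(RNAi) worms and 1.55 RPKM in *set1*(RNAi) worms, or about 61.0 against 18.2 reads per library. In 38 of them (66.7%) the mean was under 5 RPKM, beside 38.9% of all members, and in 55 (96.5%) under 20 RPKM, beside 72.6%. There were 39 (68.4%) shorter than 1000 bases, beside 41.7% of all members. The groups did not overlap in any of the 57, which nearly follows from their choice on the same libraries. By their level in control X1 cells, 19 (33.3%) were at least 4-fold higher in X1 cells than in whole worms, 16 (28.1%) were within 4-fold, 6 (10.5%) were at least 4-fold lower and 16 (28.1%) were not listed for X1 cells. The shares of all members in these classes were 9.31%, 47.3%, 22.4% and 20.9%. After 9 days of *mll1/2*(RNAi) their median log2 difference from that experiment's *unc22*(RNAi) worms was -0.13, and 3 of them were at least 2-fold lower there; this is a difference of means with no test.

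The transcript that fell most among those without overlap was SMED30028899, 339 bases long. Its level was 2.15, 1.01, 1.21 and 0.93 RPKM in the 4 *set1*(RNAi) libraries and 5.63, 4.20, 8.06 and 5.57 RPKM in the 4 *unc22*(RNAi) libraries. Every knockdown library was below every control library, as the choice of the examples required, with 6 to 15 reads against 30 to 51. The log2 fold change was -1.81 (SE 0.19, limma adjusted p = 7.3e-06), or 3.52-fold lower on the scale of RPKM + 0.5, which understates changes at such low levels. The mean RPKM values, 1.33 and 5.87, differed 4.43-fold.

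Next was SMED30034695, 1214 bases long. It stood at 0.40, 0.23, 0.34 and 0.39 RPKM after *set1*(RNAi) and at 2.72, 1.95, 1.68 and 2.13 RPKM after *unc22*(RNAi). Again no library overlapped, by the same choice, and 5 to 10 reads lay against 38 to 64. The log2 fold change was -1.63 (SE 0.15, limma adjusted p = 1.6e-06), but -2.33 with a pseudocount of 0.1, -1.21 with a pseudocount of 1 and -2.59 with voom. The mean RPKM values, 0.34 and 2.12, differed 6.22-fold. At day 9 the mean after *set1*(RNAi) was 0.24 RPKM, so this ID reached the threshold of 1 RPKM only through the *unc22*(RNAi) libraries. Both transcripts were also lower in X1 cells at day 6, SMED30028899 by -1.79 on the log2 scale (SE 0.21, adjusted p = 2.2e-05 by limma) and SMED30034695 by -1.09 (SE 0.19, adjusted p = 0.00077 by limma). In X1 cells the first was at 3.44 to 5.91 RPKM against 11.5 to 19.9, and the other at 1.12 to 1.252 RPKM against 2.85 to 3.61, so neither overlapped there. Neither was 2-fold lower after *mll1/2*(RNAi), where the untested log2 differences were 0.0054 for SMED30028899 and -0.32 for SMED30034695.

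Only 2 called transcripts rose at least 2-fold. SMED30033371, 899 bases long, was at 2.97, 3.36, 2.69 and 3.86 RPKM in *set1*(RNAi) worms and at 0.57, 0.79, 0.66 and 1.02 RPKM in *unc22*(RNAi) worms. The lowest knockdown library was above the highest control library, as the choice of the examples required. The log2 fold change was 1.56 (SE 0.14, limma adjusted p = 1.6e-06), and the transcript was not listed for X1 cells. Its mean in *unc22*(RNAi) worms was 0.76 RPKM at day 6 and 0.83 RPKM at day 9. It therefore reached the threshold of 1 RPKM only through the *set1*(RNAi) libraries, where it is high.

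SMED30016968, 396 bases long, was at 11.8, 7.90, 10.4 and 12.1 RPKM in *set1*(RNAi) worms and at 3.77, 5.63, 3.11 and 4.77 RPKM in *unc22*(RNAi) worms. The groups did not overlap, again by the choice of the examples, and the knockdown library nearest the controls was replicate 2. The log2 fold change was 1.21 (SE 0.14, limma adjusted p = 1.6e-05). In X1 cells it was at the limit of the data, with 2, 12, 3 and 9 reads in *set1*(RNAi) libraries and 5, 0, 0 and 1 reads in *unc22*(RNAi) libraries, and the difference there did not pass the test (limma adjusted p = 0.061). After *mll1/2*(RNAi) the untested log2 differences of both were below 0, at -0.38 for SMED30033371 and -0.76 for SMED30016968.

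**Figure D2:**
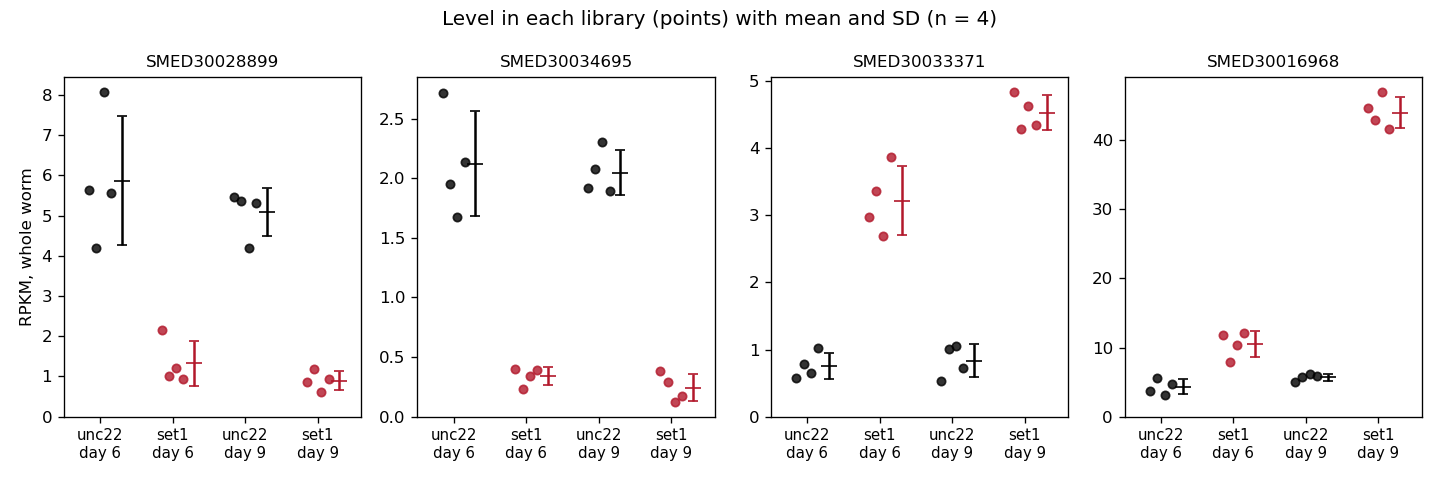
RPKM in whole worms (vertical axis, from 0) of the 2 transcripts that fell most and the 2 that rose most at day 6, with each library as a point and the mean and SD of 4 libraries beside it, for *unc22*(RNAi) in black and *set1*(RNAi) in red at days 6 and 9. The groups do not overlap in any panel on either day, which at day 6 follows from the choice of these transcripts. SMED30016968 goes from 7.90 to 12.1 RPKM at day 6 to 41.6 to 46.9 RPKM at day 9.

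Members were then grouped by where they are found, using control libraries that the day 6 comparison does not contain. The log2 level in X1 cells minus that in whole worms, both from *unc22*(RNAi) at day 9 of the *set1* experiment, defined 1829 X1-high transcripts (at least 4-fold higher in X1 cells), 4405 X1-low transcripts (at least 4-fold lower), 9304 similar transcripts and 4117 not listed for X1 cells. The levels come from tables that may have been normalised separately, so the classes are approximate.

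X1-high transcripts were called lower 463 times (25.3%) and higher 61 times (3.34%), beside 10.6% and 5.91% over all members. Their median log2 fold change was -0.12, and 73.0% of them were below 0. X1-low transcripts went the other way, with 581 (13.2%) called higher, 290 (6.58%) called lower (440 and 428 with voom) and a median of 0.046. Similar transcripts had 12.1% called lower and 4.04% called higher (7.61% and 9.33% after median scaling). Those not listed for X1 cells had 4.98% called lower and 3.50% called higher (3.93% and 5.98% after median scaling), at a median level of 2.14 RPKM. In whole worms, fewer cells of a type and less RNA per cell cannot be told apart.

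The shares called changed by degrees with the X1 level and not only at the class limits. Of 801 transcripts more than 32-fold lower in X1 cells than in whole worms (log2 below -5), 22.1% were called higher and 6.62% lower. Where X1 cells and whole worms were within 2-fold, 4.31% of 2597 transcripts (log2 -1 to 0) and 3.10% of 2132 (log2 0 to 1) were called higher, and 9.01% and 15.2% lower. Of 83 transcripts with a log2 difference of at least 4, 31.3% were called lower and 4.82% higher. The share called lower stayed at 5.81% to 8.62% in all bins below -1. Level moved with the X1 difference too. Its median was 86.9 RPKM in the 801 transcripts below -5, 10.1 RPKM at -3 to -2 and 6.31 RPKM at -2 to -1. In the latter bins 7.91% and 5.41% were called higher. These shares were taken on the deposited RPKM scale only and were not split by level.

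**Figure D3:**
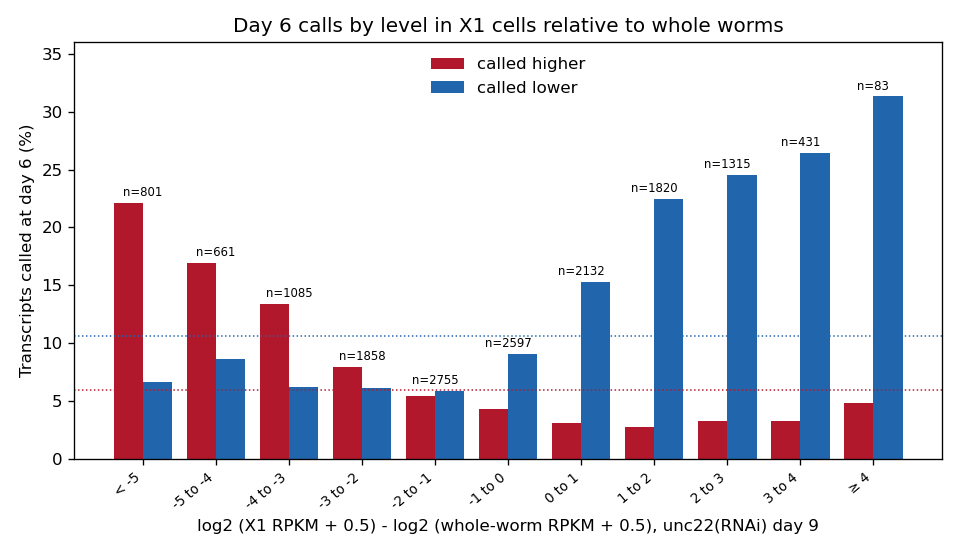
Share of transcripts called higher (red) and lower (blue) at day 6, in percent, by the log2 difference of their level in X1 cells and whole worms in *unc22*(RNAi) libraries of day 9; n is the number of transcripts in a bin, and dotted lines are the shares over all members (5.91% higher, 10.6% lower). The red bars go from 22.1% at the left to 4.82% at the right and the blue bars from 6.62% to 31.3%. The bins also differ in level, with a median of 86.9 RPKM at the left and 4.29 RPKM at the right.

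The excess of falls among X1-high transcripts was there under every scaling tried. There were 350 falls and 106 rises after median scaling, 426 and 75 after quantile normalisation, and 577 and 56 with voom. For X1-low transcripts, rises outnumbered falls after median scaling (1128 to 194) and quantile normalisation (794 to 272), but with voom the numbers were close (440 to 428). Falls outnumbered rises among similar transcripts after quantile normalisation (1004 to 594) and with voom (1598 to 269), but not after median scaling (708 to 868). Transcripts not listed for X1 cells had more rises than falls after median scaling (246 to 162) and quantile normalisation (198 to 183), but not with voom (96 to 253). Leaving out any one of the 8 libraries left 19.6% to 23.8% of X1-high transcripts called lower and 9.19% to 11.8% of X1-low transcripts called higher. Classes built from *unc22*(RNAi) libraries of the *mll1/2* experiment, which shares no library with these, gave 25.03% of 1466 X1-high transcripts called lower and 10.8% of 6318 X1-low transcripts called higher.

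On the deposited RPKM scale, X1-high transcripts had more falls than rises within each of the 4 classes of level and the 4 of length. Other scalings were not tried within these classes. Of X1-high transcripts with a mean of 5 to 20 RPKM, 28.5% were called lower and 1.70% higher. Among those at 100 RPKM or more, 17.5% of 137 were lower and 10.2% higher, and the median log2 fold change was -0.011. Similar transcripts at that level were much the same, with 18.5% of 448 lower, 11.8% higher and a median of -0.014. They too had more falls than rises in each of the 4 classes of level. At 5 to 20 RPKM 14.6% of them were lower and 3.30% higher. Among X1-low transcripts, rises did not outnumber falls at 1 to 5 RPKM, and the numbers were close at 5 to 20 RPKM. They were called higher in 12 cases (2.55%) and lower in 24 (5.11%) at 1 to 5 RPKM, close to the 2.30% and 5.81% of all members at that level. At 5 to 20 RPKM they were higher in 139 (7.59%) and lower in 133 (7.26%), beside 4.63% and 13.7% of all members there. At 20 to 100 RPKM there were 278 rises (18.2%) and 124 falls (8.14%), beside 10.9% and 14.7% of all members there. At 100 RPKM or more 152 of 579 (26.3%) were higher and 9 (1.55%) lower, beside 18.7% and 9.84%. Of X1-high transcripts, 18.8% were called lower when shorter than 500 bases and 29.1% at 1000 to 2000 bases, beside 5.75% and 13.2% of all members of these lengths. X1-low transcripts of at least 2000 bases were called higher in 13.6% and lower in 3.91%, beside 8.46% and 7.68% of all members of that length.

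A summed level per library shows the same classes without the calls. X1-high transcripts made up 10.6%, 10.6%, 10.6% and 10.3% of the summed RPKM of the *set1*(RNAi) libraries and 11.1%, 10.8%, 11.3% and 10.7% of the *unc22*(RNAi) libraries. The groups did not overlap, but they came close. X1-low transcripts made up 48.8%, 48.6%, 48.4% and 49.2% after *set1*(RNAi) and 47.2%, 47.2%, 47.1% and 47.5% after *unc22*(RNAi), again without overlap. Similar transcripts made up 37.3%, 37.5%, 37.6% and 37.1% after *set1*(RNAi) and 38.5%, 38.6%, 38.1% and 38.4% after *unc22*(RNAi), also without overlap. From *unc22*(RNAi) to *set1*(RNAi) the mean share went from 38.4% to 37.4% for similar transcripts. It went from 11.0% to 10.5% for X1-high transcripts, a smaller fall, and from 47.3% to 48.7% for X1-low transcripts. A share within a library does not depend on how the library was scaled, but as shares of a fixed sum these values cannot rise in one class without falling in another.

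**Figure D4:**
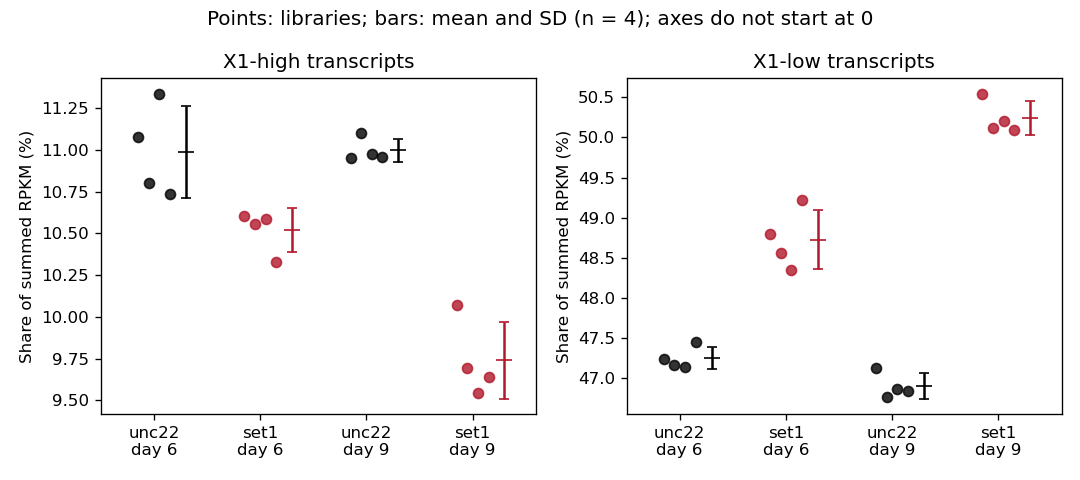
Share of the summed RPKM of each library, in percent, held by X1-high transcripts (left) and X1-low transcripts (right), with libraries as points and the mean and SD of 4 libraries beside them; the axes do not start at 0, and the *unc22*(RNAi) libraries of day 9 were used to define the classes. At day 6 the *set1*(RNAi) libraries lie at 10.3% to 10.6% for X1-high and 48.4% to 49.2% for X1-low transcripts, and the *unc22*(RNAi) libraries at 10.7% to 11.3% and 47.1% to 47.5%.

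By level alone, calls were more frequent among abundant transcripts. Of members at 1 to 5 RPKM, 2.30% were called higher and 5.81% lower, at 5 to 20 RPKM 4.63% and 13.7%, at 20 to 100 RPKM 10.9% and 14.7%, and at 100 RPKM or more 18.7% and 9.84%. The median standard error of the log2 fold change was 0.14 in the lowest of these classes and 0.048 in the highest. At 100 RPKM or more there were 221 rises and 116 falls, but after quantile normalisation these were 196 and 202, with voom 208 and 207, and after median scaling 358 and 63. Rises in this class had a median size of 0.23 and the largest was 0.81, while the largest fall was 0.997. Of the 221 rises 152 were X1-low and 14 X1-high, and of the 116 falls 9 were X1-low and 24 X1-high. All 1179 members at this level held 579 X1-low and 137 X1-high transcripts.

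Length moved with the calls as well. Of members shorter than 500 bases 5.75% were called lower and 3.81% higher, of those at 500 to 1000 bases 12.5% and 4.32%, at 1000 to 2000 bases 13.2% and 6.32%, and of those at least 2000 bases long 7.68% and 8.46%. In the longest class the median log2 fold change was 0.028. Removing the trend of each library with length gave 1127 rises and 2107 falls in all, and 2966 of the 3247 calls were among them.

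Day 9 of the same experiment, with its own 4 *set1*(RNAi) and 4 *unc22*(RNAi) libraries, shows the day 6 calls at a later time. At day 9, 8273 transcripts (42.1%) were called, 4492 lower (22.9%) and 3781 higher (19.2%). The balance depended on the scaling here as well. There were 3425 falls and 5502 rises after median scaling, 4036 and 4523 after quantile normalisation, and 5300 and 3006 with voom. The 2085 falls of day 6 held 1847 (88.6%) that were called lower again, which is 41.1% of the falls of day 9, and 4 that were called higher. Of the 1162 rises 919 (79.1%) were called higher again, or 24.3% of the rises of day 9, and 20 were called lower. The median log2 fold change of the day 6 falls was -0.31 at day 6 and -0.45 at day 9, and that of the day 6 rises 0.22 and 0.29.

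The difference between the days was tested as an interaction, which called 1648 transcripts (8.38%), 617 with a higher value at day 9 (3.14%) and 1031 with a lower one (5.25%). Among the day 6 falls it called 508, of which 492 were lower still at day 9. Among the day 6 rises it called 229, of which 186 were higher still at day 9. For the 57 largest falls, 56 were called lower at day 9, 48 had a larger fall then and 14 passed the interaction test; their median log2 fold change at day 9 was -1.49. Replicate 1 of *set1*(RNAi) at day 9 stood apart from its group (chi-square per degree of freedom of 7.05 to 7.59 against the other 3, which differed by 2.28 to 4.29), and without it 3612 transcripts were called at day 6, since its spread enters the common fit.

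The examples took different courses. SMED30028899 and SMED30034695 had log2 fold changes of -2.01 and -1.79 at day 9, and their changes from day 6 did not pass the interaction test (limma adjusted p = 0.74 and 0.73). SMED30033371 had 1.93 at day 9 (interaction adjusted p = 0.30 by limma). SMED30016968 rose to 44.5, 42.8, 46.9 and 41.6 RPKM at day 9, against 4.98 to 6.21 RPKM in *unc22*(RNAi) worms, a log2 fold change of 2.84. Its effect grew by 1.63 on the log2 scale between the days (SE 0.20, interaction adjusted p = 7.1e-05 by limma).

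**Figure D5:**
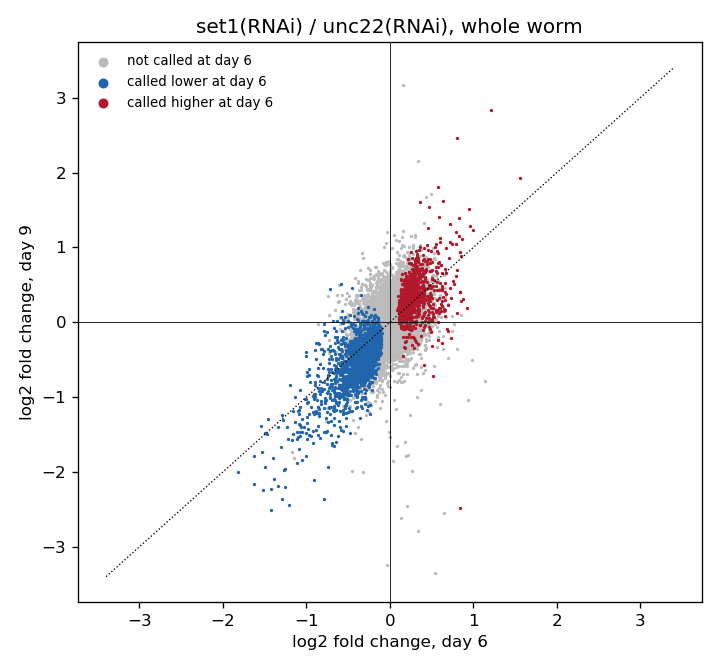
Each point is a transcript, with its log2 fold change after *set1*(RNAi) at day 6 on the horizontal axis and at day 9 on the vertical axis, each from 4 knockdown and 4 control libraries of its day. Blue points were called lower and red points higher at day 6, and the dotted line marks equal change; 1847 of 2085 blue points were also called lower at day 9 and 919 of 1162 red points higher.

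Direction was called opposite on the 2 days for 24 transcripts. All of them passed the interaction test, which nearly follows from opposite calls in the same fit and adds no support. In 20 of them the level was higher at day 6, with log2 fold changes of 0.16 to 0.84, and lower at day 9, with -2.49 to -0.097. These 20 ranged from 154 to 11527 bases and from 2.74 to 850 mean RPKM. Of them 11 were X1-low, beside 22.4% of all members and 581 of the 1162 day 6 rises. The other 4 were lower at day 6, by -0.58 to -0.20, and higher at day 9, by 0.17 to 0.51.

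By the classes built from the *mll1/2* experiment, which share no control library with day 9 either, 25.03% of X1-high transcripts were lower at day 6 and 46.5% at day 9, and the median log2 fold change was -0.11 and -0.20. For X1-low transcripts 10.8% were higher at day 6 and 33.6% at day 9, with medians of 0.036 and 0.094. Over all members the shares called on the deposited RPKM scale grew as well, from 10.6% to 22.9% lower and from 5.91% to 19.2% higher.

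X1 cells sorted at day 6 of the same experiment were compared side by side, with no test across the tables. Of 13503 transcripts tested in X1 cells, 2676 (19.8%) were called, 1780 lower (13.2%) and 896 higher (6.64%). Among day 6 members, 11973 were tested in both. Of the 1689 whole-worm falls tested in X1 cells, 705 (41.7%) were also lower there, or 44.9% of the X1 falls that were members, and 21 were higher. Of the 792 whole-worm rises tested in X1 cells, 164 (20.7%) were also higher, or 23.9% of such X1 rises, and 14 were lower. The median X1 log2 fold change was -0.28 for the whole-worm falls and 0.25 for the whole-worm rises.

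For the 57 transcripts that fell at least 2-fold in whole worms, 36 were tested in X1 cells and 27 of these were called lower there, with a median log2 fold change of -0.93. Of X1-high transcripts, 22.6% were called lower in X1 cells at day 6 and 4.10% higher, beside 13.1% and 5.72% of all members tested in X1 cells. X1-low transcripts had 4.75% lower and 6.63% higher in X1 cells, with a median log2 fold change of 0.16 over the 2337 tested.

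After 9 days of *mll1/2*(RNAi), the whole-worm falls of *set1*(RNAi) at day 6 had a median log2 difference of 0.018 over the 2082 listed there, and the rises -0.041 over 1158, beside 0.011 over all 19497 members listed. These are differences between group means of another experiment, with other control animals and another number of days, and were not tested.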

How the data were processed

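Libraries of polyA RNA were prepared with the Illumina TruSeq kit. The authors deposited RPKM values in 4 tables (*set1* or *mll1/2*, whole worms or X1 cells), a column to a library. The submitters' processing notes name CASAVA 1.8.2, Bowtie and edgeR without their roles; neither the transcript set nor the counting is stated in those notes, so reads that similar transcripts share are uncertain. The labels gave groups and replicate numbers. Column names of the *set1* X1 table show the RNAi and day but not the sample, so those libraries were used by group. The files do not pair IDs with names. The reads counted and the transcript lengths were recovered from the steps in the RPKM values, and 100% of values were within 0.02 read of a whole number. Library size implied by the steps differed from the reads recovered, so the authors' scale holds a factor for each library. Recovered reads gave the depth, the lengths, 1 alternative test and the simulated data.

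IDs that averaged at least 1 RPKM across a table's 16 libraries were tested on log2(RPKM + 0.5), a scale that understates changes of low transcripts. A mean per group was fitted to all 16 libraries with limma 3.58.1 in R 4.3.3 (eBayes with trend), two-sided, with Benjamini-Hochberg adjustment over all IDs tested. Fits of X1 cells were run within their own table. Alternatives were other pseudocounts (0.1 and 1), no filter or a mean of at least 5 RPKM, quantile and median scaling, weighted libraries, the 8 libraries alone, voom on recovered reads, a replicate block and each replicate left out. Removing the length trend and leaving out *set1*(RNAi) replicate 1 of day 9 were chosen after seeing the data. The named IDs were the 2 largest falls and the 2 largest rises among calls whose groups did not overlap. Members and lists were chosen with earlier results of these data known. The fit was tested on simulated data. No pair of replicates agreed within sampling noise (chi-square per degree of freedom 2.43 to 4.75 at day 6). Tables and plots used pandas 2.3.3, numpy 2.4.6 and matplotlib 3.10.9 under Python 3.11.15.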

Additional observations from a re-analysis of the deposited data

Results flagged for a closer look

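The effect of *set1*(RNAi) differed between day 6 and day 9 for 1648 transcripts by the interaction test (limma adjusted p below 0.05). SMED30016968 was among them, with a day 9 effect larger by 1.63 on the log2 scale.

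Of 42 groups of 4 libraries checked, 6 held a library far from the other 3, where chance gives about 1 in 20. The gap, as a share of the range of the group, was 0.885 for SMED30028899 in *unc22*(RNAi) whole worms of day 9 and 0.895 for SMED30034695 in *unc22*(RNAi) X1 cells of day 6. For the share of summed RPKM of X1-high transcripts it was 0.8291 in *set1*(RNAi) worms of day 6, where replicate 4 was lowest at 10.3%, and 0.831 in *unc22*(RNAi) worms of day 9. In *set1*(RNAi) worms of day 9 it was 0.851 for the share of similar transcripts and 0.944 for that of transcripts not listed for X1 cells, both from replicate 1.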

How the results depend on the processing

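The count of transcripts called at day 6 stayed within 2935 to 3762 under 12 other settings and 2416 to 2979 with 1 of its 8 libraries left out. Its rises were 2348 after median scaling, against 1162. All 4 named transcripts kept their direction and call wherever tested; 3 of them were below the minimum of 5 RPKM. X1 rises at day 6 were 577 with a mean of at least 5 RPKM, 1360 after quantile normalisation and 1411 with weighted libraries, against 896, and 581 to 1100 with 1 library left out (581 without *set1*(RNAi) library d, 594 without *unc22*(RNAi) library b). By the *mll1/2* experiment classes, the X1-low median was 0.036 and its falls 447 of 6318 (7.08%), against 0.046 and 290 of 4405 (6.58%). The larger class took in 1669 transcripts that were not listed for X1 cells of the *set1* experiment. The 6 calls between *unc22*(RNAi) days became 10 (5 higher) with pseudocount 1, 14 (5 higher, 9 lower) after quantile normalisation, 10 (4 higher) with weights, 10 (8 lower) with the 8 libraries alone, 31 (21 higher, 10 lower) with voom and 12 (5 higher, 7 lower) with the replicate block; the 2 higher became 1 with pseudocount 0.1 and 4 without filter. With 1 library left out they ranged from 0 to 7 in all, 0 to 4 higher and 0 to 4 lower; limma called 0 without day 6 replicate 2 or 3 or day 9 replicate 1 or 3, where 1271 to 1458 had an unadjusted p below 0.05, and 1 without day 6 replicate 4. The causes were not tested.

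Replicate numbers paired the samples weakly at most. Same-numbered libraries deviated together with r of -0.013 to 0.080 at day 6 and 0.0081 to 0.119 at day 9. Libraries of other numbers had r of -0.077 to 0.068 at day 6 and -0.113 to 0.097 at day 9. With the replicate block 3160 transcripts were called at day 6, 1130 higher and 2030 lower, and 2834 of the 3247 were among them.

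Precision was lowest for low transcripts: at 1 to 5 RPKM the median standard error was 0.14, beside a median size of all differences of 0.11. The part of sequencing depth in it was not tested.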
